A study of Macaca radiata with 4 samples.

Results

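Genes whose symbols carry a CD number, the cluster of differentiation antigens of leukocytes and other cell surfaces, were examined in the corpus luteum of the bonnet monkey (Macaca radiata). They were taken by symbol alone. A probe set (a group of array probes for 1 transcript) was a member if the platform annotation gave it 1 gene symbol made of CD, a number and at most 1 further letter and 1 further digit. This gave 132 probe sets for 65 genes, of 24956 probe sets with 1 symbol for 14132 genes. For each gene the probe set with the highest mean log2(signal + 16) over the arrays was used. CET, 150 µg per kg of body weight, was given to every animal when the luteal phase had reached day 7. Per the labels it inhibits the animal's own LH secretion, so the controls carry this treatment too. At 24 h they were given rhLH at 20 IU/kg or PBS by the intravenous route, and the corpus luteum was taken 8 h later. RNA of whole luteal tissue was hybridised to 4 arrays made for the rhesus macaque, 2 after PBS (replicates 1 and 2) and 2 after rhLH (replicates 3 and 4). Paired values below follow that order. The labels name 2 animals per group and do not tie an array to an animal, so the spread between arrays may be partly technical.

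CD numbers group surface proteins by the antibodies that recognise them and not by function, so the genes fall into several families. Some mark one kind of leukocyte: CD14 and CD68 monocytes and macrophages, CD8A and CD8B cytotoxic T cells, CD79A and CD79B the antigen receptor of B cells. Others, among them the tetraspanins CD9, CD63 and CD81 and the guards against complement CD46 and CD55, are found on nearly every cell. The corpus luteum holds steroidogenic cells, a dense capillary bed, stromal cells and resident macrophages, and leukocytes are known to gather in it as it regresses. In whole tissue, fewer cells of a type and less RNA per cell cannot be told apart.

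Signals are MAS5 values on a linear scale. Their 2% trimmed mean was 500.0 on all 4 arrays, and the median signal of PBS replicate 1 was 186, the other arrays lying between 136 and 139.5. PBS replicate 1 stood apart: across kept probe sets its Pearson r with the other arrays was 0.752 to 0.780, against 0.940 to 0.947 among those 3. Across the 53 kept CD genes, r was 0.808 to 0.845 with PBS replicate 1 and 0.971 to 0.979 among the others. Differences are therefore given against each PBS array as well as pooled. Both use the same rhLH arrays. The tissue label was checked: all 6 steroidogenic genes measured lay above the filter level on every array, with STAR, which carries cholesterol into mitochondria, at 24283 to 54566. Their summed signals were 69416 and 153977 for the controls and 149969 and 162416 after rhLH, so PBS replicate 1 was the lowest. PTPRC, the CD45 antigen of all leukocytes, lay between 234 and 733.

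Most of the CD genes had a mean signal above the filter level, which is not a detection call. A level of 90.7, the 40th percentile of all probe sets by mean log2, was used as the filter. Of the 65 genes, 53 had a mean above it and 44 exceeded it on all 4 arrays. By role, those above it on every array were 7 of 7 tetraspanins, 4 of 4 guards against complement and phagocytes, 6 of 7 adhesion genes and 7 of 9 presentation genes. They were also 12 of 20 monocyte, macrophage and dendritic cell genes, 3 of 10 T and NK cell genes and 1 of 4 B cell genes. Some genes stand in more than 1 of these lists. The number above it was 56 and 52 for the controls and 55 and 48 after rhLH, beside 59.9% to 66.0% of all probe sets. Each CD gene is counted by its brightest probe set, and 37 of the 65 had several. This raises the count of CD genes relative to that of single probe sets. CD7, CD69 and CD209 lay below it on every array, and 9 more genes did not pass the filter: CD8B, CD28, CD33, CD70, CD79A, CD101, CD160, CD300A and CD300E. CD226, an adhesion receptor of T and NK cells, passed through PBS replicate 1 alone, with 553 and 59.6 with PBS and 60.2 and 53.3 with rhLH. Among the genes that passed, PBS replicate 1 was the highest array for 18 and the lowest for 24. Genes such as CD3D, CD3E, CD34, CD52, CD59 and CD163 were matched to no probe set by symbol and are not analysed here.

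**Figure D1:**
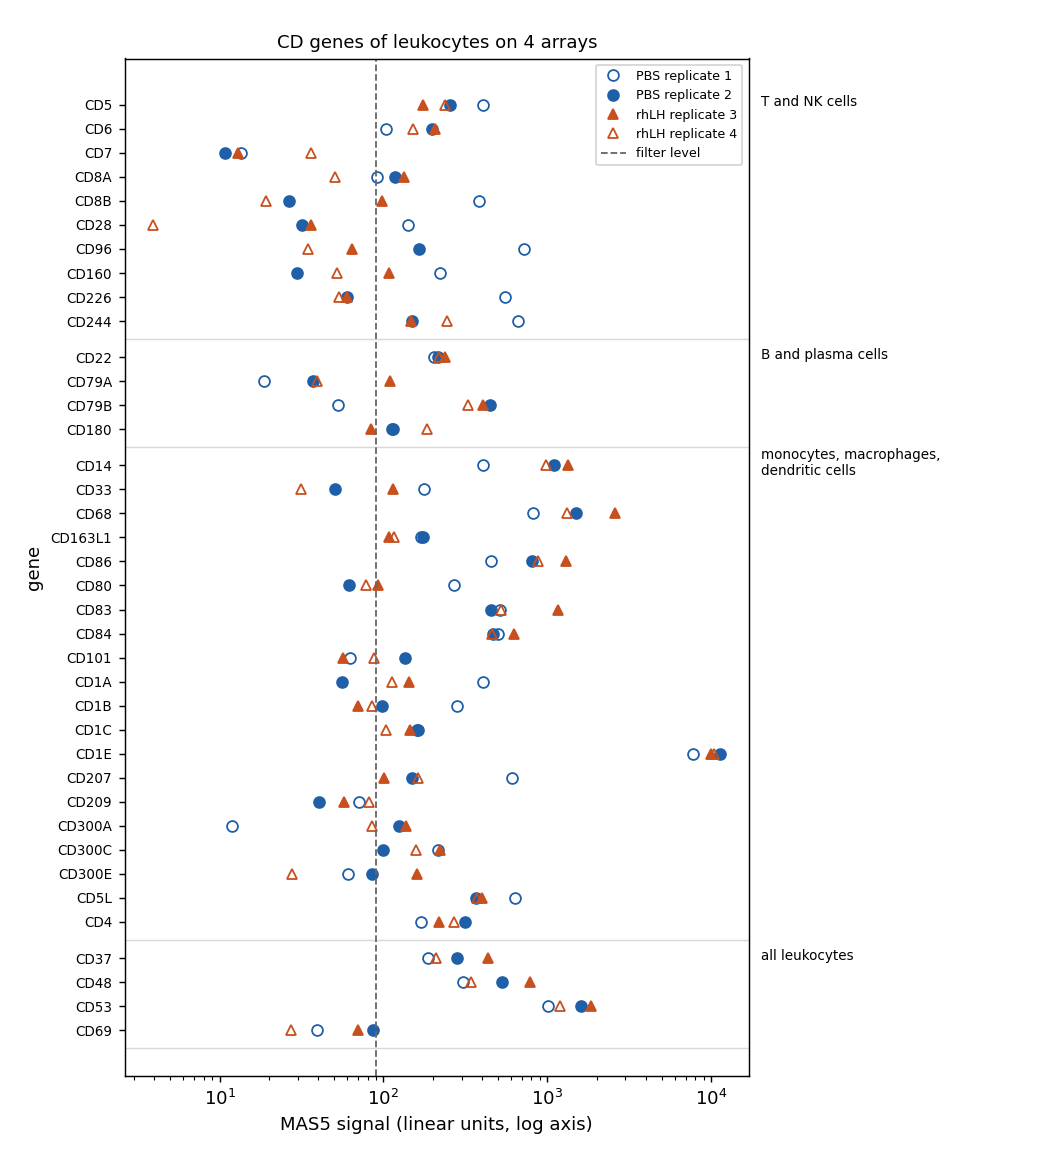
Signals (log axis) of the leukocyte CD genes on each of the 4 arrays, by the cell types they mark; the dashed line is the filter level of 90.7. Macrophage genes such as CD14, CD68 and CD86 lie above the line on every array, whereas most T and NK cell genes lie around it and several are highest on PBS replicate 1.

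The question of the design is which luteal transcripts respond to replacement of LH once secretion is inhibited. None of the CD genes passed the test. Limma called 0 of the 53 kept genes at an adjusted p of 0.05 (adjusted p from 0.919 to 0.995), as it called 0 of 31659 probe sets (0%). An unadjusted p under 0.05 was found for 1 gene, CD96 (1.89%), and for 641 probe sets (2.02%). With 2 arrays per group an exact permutation test of a single gene cannot go below a two-sided p of 0.333. Both rhLH arrays lay above both PBS arrays for 7 kept genes (13.2%), beside 14.4% of all kept probe sets, and below both for 7 (13.2%), beside 17.7%. Both shares were near or below those of all probe sets. The higher genes were CD9, CD22, CD58, CD83, CD86, CD274 and CD276, and the lower genes CD1B, CD1C, CD5, CD36, CD96, CD163L1 and CD164L2. With arrays centred on their medians, which moved the median of all kept probe sets by 0.23, the split was 13 higher and 5 lower. Of the lower genes, CD1B and CD96 were kept through the PBS arrays alone. The kept CD genes had a median log2 difference of 0.12, beside −0.036 for all kept probe sets.

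The 2 controls gave different pictures. Against PBS replicate 1 the median of the absolute log2 differences of the kept CD genes was 0.73, and 19 of the 53 lay within 1.5-fold of it. Against PBS replicate 2 it was 0.22, and 46 lay within 1.5-fold. The same medians over all kept probe sets were 0.72 and 0.27. Both rhLH arrays were at least 2-fold above PBS replicate 1 for CD14, CD40, CD74, CD79B, CD81, CD99 and CD151, which is 13.2% of kept genes beside 13.1% of all probe sets. They were at least 2-fold below it for CD1A, CD1B, CD80, CD96, CD164L2, CD207, CD226 and CD244 (15.1% beside 13.9%). Of these, CD1B and CD96 were kept through the PBS arrays alone and CD226 through PBS replicate 1 alone. Their direction follows in part from the filter. Against PBS replicate 2, both rhLH arrays were at least 2-fold higher for 0 genes, beside 2.31% of all probe sets, and at least 2-fold lower for CD96 alone (1.89% beside 1.09%). With PBS replicate 1 as the sole control, limma called 17 of the 53 genes (32.1%), beside 25.8% of all probe sets. With PBS replicate 2 as the sole control it called 0 genes, beside 0% of all probe sets. In both fits the lone control was assumed to vary as the rhLH arrays do.

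**Figure D2:**
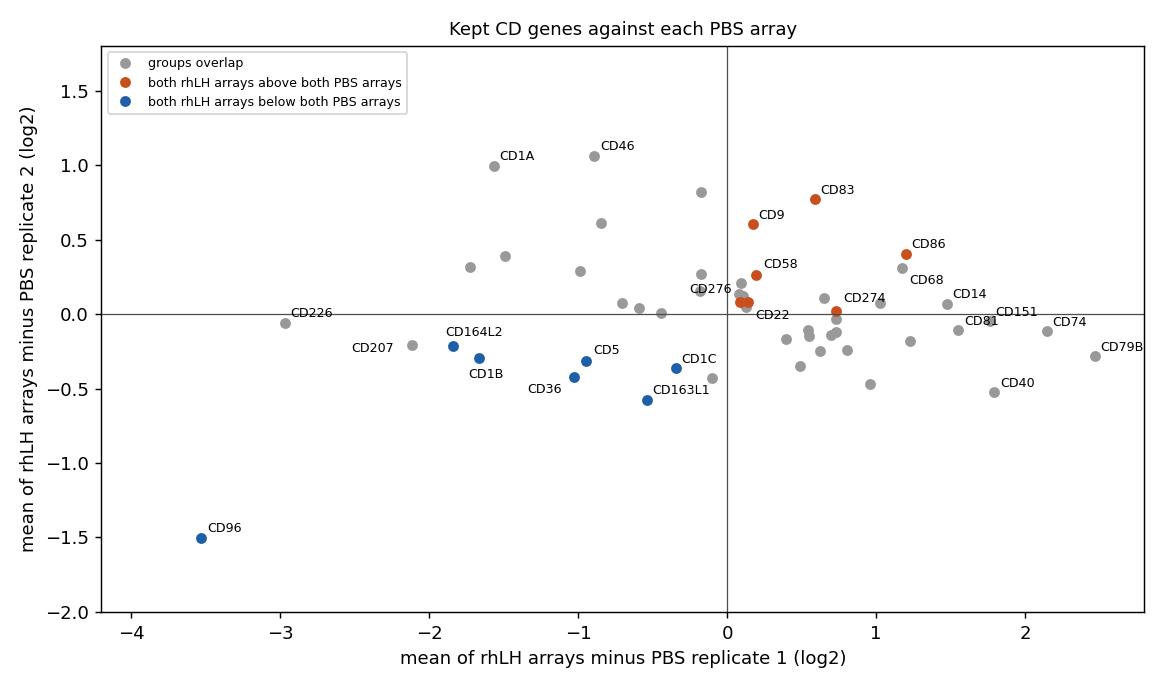
Mean of the rhLH arrays minus PBS replicate 1 (horizontal axis) and minus PBS replicate 2 (vertical axis) for the 53 kept CD genes, in log2 units; colours mark genes whose groups do not overlap. The points spread from −3.53 to 2.47 along the horizontal axis and from −1.50 to 1.06 along the vertical one, and CD96 is the lowest on both.

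Monocyte, macrophage and dendritic cell genes formed the longest leukocyte list: of 20 genes matched, 15 passed the filter and 12 lay above its level on all arrays. CD14, the co-receptor for bacterial lipopolysaccharide, had signals of 403 and 1095 in the controls against 1335 and 989 after rhLH. CD68, a lysosomal glycoprotein of macrophages, had signals of 815 and 1493 after PBS, beside 2609 and 1318 after rhLH. CD86, a ligand for CD28 on antigen-presenting cells, had signals of 456 and 804 with PBS and 1295 and 883 with rhLH. For these 3 genes PBS replicate 1 was the lowest array and rhLH replicate 3 the highest. The rhLH arrays exceeded both PBS arrays for CD86 only, which was 1.75-fold higher (1089 ± 291 against 629.7 ± 246, SD, n = 2 each; log2 0.80, SE 0.43; adjusted p = 0.919, limma). Its adjusted p ran from 0.036 with PBS replicate 1 as the sole control to 1.000 over the alternatives tried. The log2 differences were 1.20 with PBS replicate 1 as the control and 0.41 with PBS replicate 2, and its further kept probe set stood at 0.095. CD14 differed by 1.47 relative to PBS replicate 1 and 0.068 relative to PBS replicate 2, and CD68 by 1.17 and 0.31. The further probe set of CD68 lay on the other side (log2 −0.99).

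CD83, a surface protein of mature dendritic cells, was the other gene of this group with both rhLH arrays above both PBS arrays, at 514 and 451 in the controls against 1159 and 526 after rhLH. Here rhLH replicate 3 stood alone and rhLH replicate 4 was close to the controls: the log2 difference of 0.68 (SE 0.48) became 0.12 with replicate 4 as the only rhLH array and 1.24 with replicate 3 as the only one. CD84, an adhesion receptor of the SLAM family, ranged from 463 to 627 over the 4 arrays. CD4, which human macrophages carry as well as helper T cells, had signals of 169 and 314 after PBS, beside 219 and 269 after rhLH, with the rhLH arrays between the controls. CD163L1, a scavenger receptor related to CD163, was lower on both rhLH arrays, at 170.3 and 175 with PBS and 109 and 116 with rhLH (log2 −0.56, SE 0.53). Its PBS arrays were alike on the deposited scale, so the difference was nearly the same against each, at −0.54 and −0.58. The pooled difference was −0.34 under quantile normalization and −0.33 under median centring. Against PBS replicate 2 it was −0.55 and −0.54 under these scalings, and both rhLH arrays stayed lower. CD5L, a protein secreted by macrophages, was highest on PBS replicate 1 (639), the others lying between 366 and 400.5. CD300C, a receptor of myeloid cells, had 215 and 99.4 in the controls against 221 and 159 after rhLH. Its groups overlapped, but under both other scalings both rhLH arrays were higher.

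Genes of the CD1 family, CD207 and CD209 are known from dendritic cells. CD1B and CD1C present lipid antigens on dendritic cells. CD1B had signals of 279.9 and 98.7 after PBS, beside 70.3 and 85.0 after rhLH, and CD1C of 160.0 and 162 with PBS and 145 and 103 with rhLH. Both lay below the controls with rhLH, for CD1C with log2 differences of −0.35 and −0.36, and for CD1B with both rhLH signals under the filter level. The groups of CD1C overlapped under median centring and under quantile normalization. CD207, the langerin of Langerhans cells, had signals of 607 and 150.4 in the controls against 100.3 and 162 after rhLH, with PBS replicate 1 alone high. CD209, the lectin DC-SIGN, had signals of 70.7 and 40.7 after PBS, beside 57.8 and 81.9 after rhLH, all under the filter level. CD1A, of the same family as CD1B, ranged from 55.8 to 407, both on PBS arrays. CD1E, which aids lipid loading, stood at 7707 to 11409 on its brightest probe set, but its other probe sets ranged from 41.0 to 225. The probe sets assigned to CD1E therefore did not give 1 picture of this gene. Over the 15 kept genes of the group, 8 differences were positive and 7 negative. The negative differences include that of CD1B, which was kept through the PBS arrays alone. The median was 0.069, and it became −0.057 under quantile normalization and 0.30 under median centring.

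Antigen presentation and costimulation genes held 4 of the 7 genes that were higher on both rhLH arrays. These were 50% of the 8 kept genes of the list, beside 14.4% of all kept probe sets, and 3 genes (37.5%, beside 16.7%) under quantile normalization. CD74, the invariant chain that guides MHC class II molecules, had signals of 727 and 3549 with PBS and 4542 and 2355 with rhLH. PBS replicate 1 alone was low: the log2 difference was 2.15 with PBS replicate 1 as the control and −0.12 with PBS replicate 2. CD274, the checkpoint ligand PD-L1, had signals of 261 and 437 in the controls against 438 and 449 after rhLH, so that PBS replicate 2 and the rhLH arrays were nearly level. CD276, a related B7 protein, spanned only 2161 to 2388 over the 4 arrays, and its groups overlapped under quantile normalization. CD40, which receives help from T cells, was at 119 on PBS replicate 1, with the others between 397 and 656. CD200R1, an inhibitory receptor of myeloid cells, differed between the rhLH arrays themselves, with 1015 and 1075 after PBS, beside 1762 and 696 after rhLH. CD80, the relative of CD86, exceeded the filter level on PBS replicate 1 (269) and rhLH replicate 3 (93.1) only. Of the 8 kept genes, 7 had a positive pooled difference, beside 15034 of 31659 kept probe sets. The medians of the 8 genes were 0.66 from PBS replicate 1 and 0.063 from PBS replicate 2. The count of 7 was the same under both other scalings.

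CD genes shared by all leukocytes differed between the rhLH arrays themselves. CD53, a tetraspanin of blood cells, had signals of 1011 and 1603 with PBS and 1843 and 1194 with rhLH. CD48, a ligand of CD244 on lymphoid and myeloid cells, had signals of 307 and 533 in the controls against 786 and 342 after rhLH. CD37, a tetraspanin most abundant on B cells, had signals of 188 and 280.0 after PBS, beside 434 and 209.8 after rhLH. In all 3, rhLH replicate 3 was the highest array and PBS replicate 1 the lowest. The ratio of rhLH replicate 3 to rhLH replicate 4 was 1.54 for CD53, 2.24 for CD48 and 1.99 for CD37. Against PBS replicate 2 their rhLH means differed by −0.11, −0.036 and 0.11 on the log2 scale. Without rhLH replicate 3 all 3 pooled differences turned negative (−0.092, −0.24 and −0.12). These values are from the brightest probe sets. Over the 3 kept probe sets of CD53 the difference against PBS replicate 2 ran from −1.26 to −0.11. Over the 3 of CD48 it ran from −0.61 to 0.11. CD69, an early activation antigen, had signals of 39.3 and 86.8 with PBS and 70.4 and 27.3 with rhLH, all under the filter level.

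The gap between the rhLH arrays extended to some, but not all, lists of leukocyte genes outside the CD series. All 4 further markers of leukocytes measured were highest on rhLH replicate 3: PTPRC, which encodes the CD45 phosphatase, LCP1, CORO1A and ITGB2. PTPRC had signals of 628 and 356 in the controls against 733 and 234 after rhLH. Their summed signals were 2635 and 2087 for the controls and 5111 and 1979.7 after rhLH. Of the 10 kept non-CD markers of monocytes to dendritic cells, 9 were higher on rhLH replicate 3 than on rhLH replicate 4, with a median log2 gap of 0.56. Of the 7 MHC class II and CD74 pathway genes, 6 were, with a median gap of 1.01. MAMU-DRA, the class II alpha chain, had signals of 1831 and 5532 after PBS, beside 10834 and 3350.4 after rhLH. Of 5 kept T and NK cell markers outside the series 3 were higher on rhLH replicate 3 (median gap 0.50). The 3 kept B cell markers had a median gap of −0.49 and the 4 kept granulocyte markers one of 0.089. KIT, the 1 kept mast cell marker, was lower on rhLH replicate 3, by −1.08. Among all kept probe sets, 49.1% were higher on rhLH replicate 3 than on rhLH replicate 4, and 19.6% were highest on rhLH replicate 3. Of the kept CD genes these were 31 (58.5%) and 17 (32.1%).

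**Figure D3:**
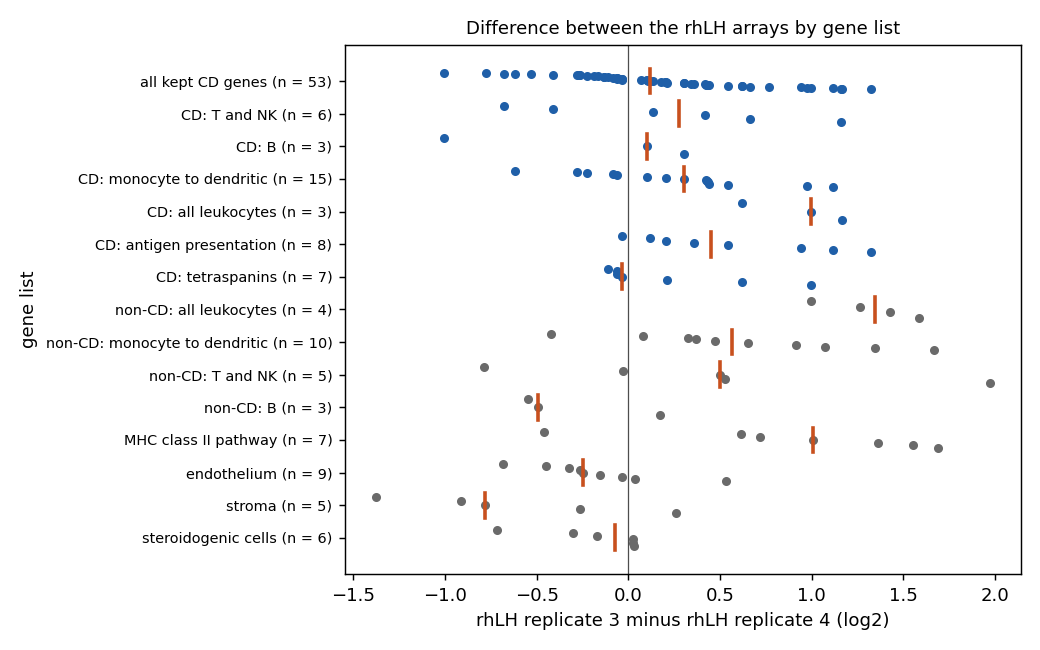
Log2 difference between rhLH replicate 3 and rhLH replicate 4 for each kept gene (points) of the gene lists, with list medians as vertical bars; blue points are CD genes and grey points other genes. Outside the CD genes the T and NK cell, monocyte, all-leukocyte and MHC class II lists have medians from 0.50 to 1.35, whereas those of the B cell, endothelial, stromal and steroidogenic lists are −0.49, −0.25, −0.78 and −0.073.

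That gap lay between 2 arrays of 1 group and has no replicate. Its part in the higher signals of CD83 and CD86 on rhLH replicate 3 was not tested. Genes of other luteal cells were mostly not higher there: 2 of 9 endothelial genes, 1 of 5 stromal genes and 3 of 6 steroidogenic genes (1 of 6 under quantile normalization) were higher on rhLH replicate 3. Among tetraspanins outside leukocytes, the ratio of rhLH replicate 3 to 4 was 0.958 for CD9, 1.16 for CD63, 0.958 for CD81, 0.928 for CD82 and 0.978 for CD151. Those with TSPAN names spread more widely, from 0.679 for TSPAN2 to 1.29 for TSPAN6. For 11 kept CD genes (20.8%, beside 10.9% of all kept probe sets) rhLH replicate 3 was at least 1.5-fold above rhLH replicate 4. They were CD8A, CD37, CD46, CD48, CD53, CD68, CD74, CD83, CD96, CD177 and CD200R1. Of these CD46 is found on nearly all cells, and CD8A and CD96 lay under the filter level on rhLH replicate 4.

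T and NK cell genes of the CD series gave few clear signals. Of 10 matched, 6 passed the filter and 3 (CD5, CD6 and CD244) lay above its level on all arrays. CD8A, the co-receptor chain of cytotoxic T cells, had signals of 90.8 and 118 with PBS and 133 and 50.7 with rhLH, and CD8B of 385 and 26.5 in the controls against 98.5 and 19.3 after rhLH. For CD8B only PBS replicate 1 was clearly above the filter level. CD28, the T cell costimulator, ran from 3.93 on rhLH replicate 4 to 142 on PBS replicate 1. CD160, a receptor of NK cells, was likewise highest on PBS replicate 1 (221), and CD7 stayed at or under 36.2. CD96, a receptor of T and NK cells, had signals of 723 and 165 after PBS, beside 64.7 and 34.9 after rhLH. Both rhLH arrays lay under the filter level, so CD96 passed through the PBS arrays alone and its fitted log2 difference of −2.52 (SE 0.82; adjusted p = 0.919, limma) rests on rhLH signals under that level. Its adjusted p ran from 0.00662 with PBS replicate 1 as the sole control to 1.000 over the alternatives. Its fitted log2 difference was −3.53 relative to PBS replicate 1 and −1.50 relative to PBS replicate 2. Its 2 other probe sets did not pass the filter, with no signal above 44.2.

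CD5, an inhibitory receptor of T cells, was also lower on both rhLH arrays, at 406 and 256 with PBS and 174 and 236 with rhLH (log2 −0.63, SE 0.49). The other kept probe set of CD5 stood at −0.22, and at 0.65 against PBS replicate 2. CD6, a related receptor, ranged from 103 to 207 with overlapping groups. CD244, a receptor for CD48, was high on PBS replicate 1 only (666, against 147 to 244). CD96 and CD226 were kept through PBS arrays alone, so no tally of directions is given for this group. The summed signals of the 6 kept genes were 2542 and 946 for the controls and 786 and 771 after rhLH. These sums include CD96 and CD226, so no direction is read from them.

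NK and T cell genes outside the CD series, of which 5 passed the filter, were mixed. GZMB, the serine protease granzyme B of cytotoxic granules, had signals of 4481 and 10891 in the controls against 15764 and 16051 after rhLH, and KLRD1, the NK receptor CD94, of 2656 and 3013 after PBS, beside 4349 and 3064 after rhLH. Both were higher on both rhLH arrays (log2 1.18 and 0.37), whereas the granzyme GZMA overlapped (log2 −0.25). That is 40% of the 5 kept genes higher and 0% lower, beside 14.4% and 17.7% of all kept probe sets. ZAP70, a kinase of the T cell receptor, was highest on PBS replicate 1, at 592 and 163 with PBS and 315 and 214 with rhLH (log2 −0.26). GNLY, a granule protein of NK cells, had 476 and 14790.5 in the controls against 8054 and 2041 after rhLH, so its controls spanned the rhLH arrays. Limma called 0 of the 5 kept genes of this list in either direction. Granzyme B is also known from cells other than lymphocytes, and its source was not tested here.

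B cell genes were sparse. CD22, an inhibitory receptor of B cells, had signals of 205 and 215 after PBS, beside 237 and 219 after rhLH, which is higher on both rhLH arrays by 0.14 and 0.078 on the log2 scale. CD79B, a signalling chain of the B cell receptor, had signals of 52.6 and 448 with PBS and 407 and 327 with rhLH, whereas its partner CD79A had 18.6 and 37.3 in the controls against 109 and 39.6 after rhLH. CD79B was thus low on PBS replicate 1 only, and CD79A passed the level on rhLH replicate 3 only. CD180, a relative of the Toll-like receptors on B cells, ranged from 83.5 to 184, both on rhLH arrays. The B cell marker MS4A1, which encodes CD20, ran from 77.6 to 121 around the filter level. Of 3 kept B cell markers outside the series, 0 lay above and 0 below both controls, beside 14.4% and 17.7% of all kept probe sets.

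Tetraspanins, small membrane proteins that organise other receptors, were above the filter level on every array for all 7 genes. CD9 had signals of 6364 and 4719 after PBS, beside 7028 and 7335 after rhLH, a 1.31-fold difference (7181 ± 217 against 5541 ± 1163, SD, n = 2 each; log2 0.39, SE 0.33). Its rhLH arrays exceeded PBS replicate 2 by 0.60 and PBS replicate 1 by 0.17 on the log2 scale. The groups overlapped under quantile normalization, and the other kept probe sets of CD9 stood at −0.11 and −0.92. CD63, a tetraspanin of lysosomes and secretory vesicles, had signals of 9641 and 18628 with PBS and 21134 and 18262 with rhLH. CD81, a partner of many receptors, had signals of 4723 and 14979.8 in the controls against 13592 and 14193 after rhLH, and CD151, which binds integrins, of 1228 and 4358 after PBS, beside 4170.5 and 4264 after rhLH. In all 3, PBS replicate 1 was the lowest array, and the other 3 were close to each other. Over the 7 tetraspanins the medians were 0.65 from PBS replicate 1 and −0.047 from PBS replicate 2. CD82, which restrains cell migration, ranged from 337 to 555, both on PBS arrays.

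Other tetraspanins, which carry TSPAN names, were taken from a fixed list of 17. Of 12 kept, 5 were higher on both rhLH arrays and 0 lower, with 0 called by limma. The higher ones were TSPAN4, TSPAN6, TSPAN7, TSPAN12 and TSPAN33, of which TSPAN12 was kept through the rhLH arrays alone (81.9 and 50.4 with PBS and 149.7 and 124 with rhLH). Of all kept probe sets, as given above, 14.4% were higher and 17.7% lower. TSPAN6 had signals of 1904 and 2127 in the controls against 3218 and 2498 after rhLH, and TSPAN7 of 4638 and 6776 after PBS, beside 7867 and 7523 after rhLH. The median over the 12 was 0.20, with 0.25 from PBS replicate 1 and 0.11 from PBS replicate 2. Under both other scalings 0 remained the count of those lower on both rhLH arrays.

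**Figure D4:**
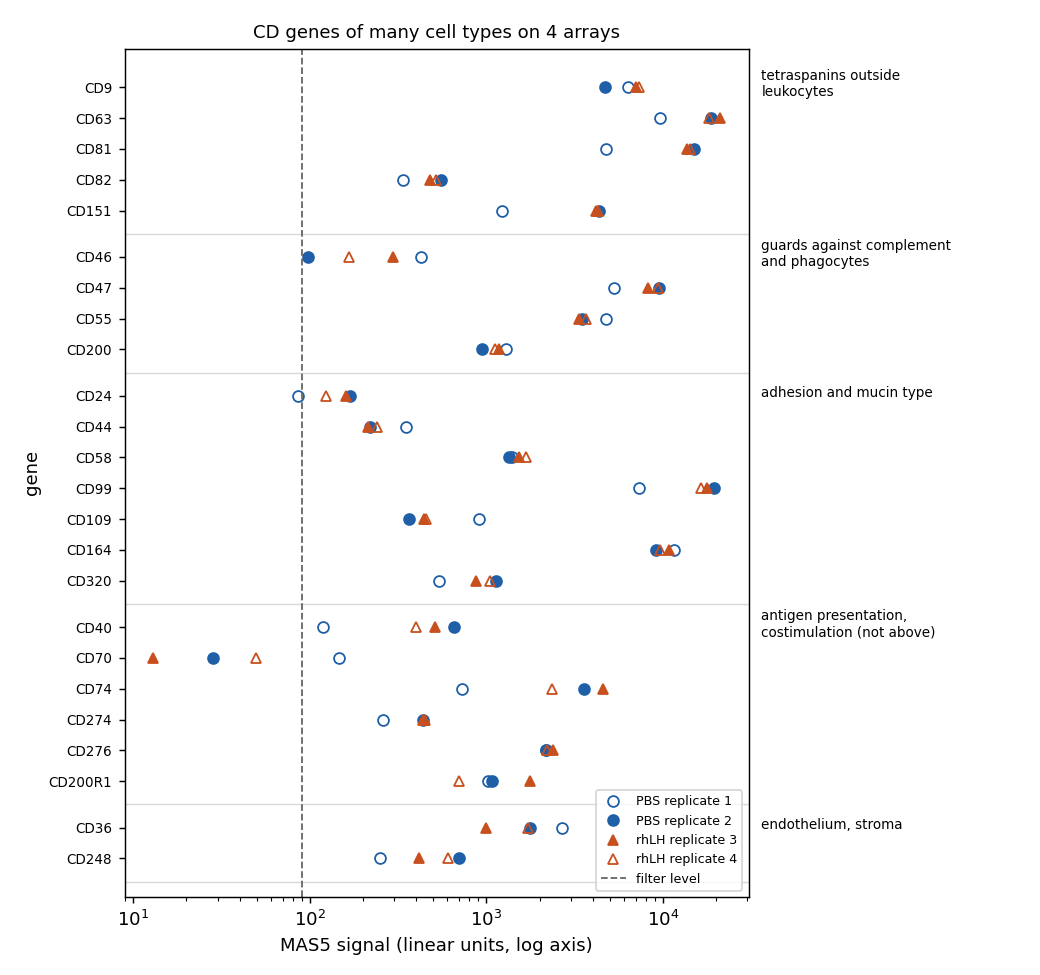
Signals (log axis) of CD genes found on many cell types, and of further presentation, endothelial and stromal genes, on each of the 4 arrays; the dashed line is the filter level of 90.7. PBS replicate 2 and the rhLH arrays lie close together for most genes, and PBS replicate 1 is displaced to the left for CD63, CD81, CD99, CD151 and CD74.

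Guards against complement and phagocytes overlapped between the groups for all 4 genes, although CD200 did not under median centring. CD46, which aids the cleavage of complement fragments, had signals of 427 and 98.2 with PBS and 295 and 167 with rhLH, with the rhLH arrays between the controls. CD55, which speeds the decay of complement convertases, had signals of 4781 and 3483 in the controls against 3347 and 3674 after rhLH. CD47, the signal that restrains phagocytes, had signals of 5265 and 9491 after PBS, beside 8191 and 9326 after rhLH. For CD55 and CD47 the rhLH means lay 0.010 and −0.12 from PBS replicate 2 on the log2 scale. CD200, the ligand of CD200R1, ranged from 947 to 1293, both on PBS arrays. Of 9 kept complement genes from a fixed list, 0 were called and 0 separated the groups. Of all kept probe sets, 14.4% were higher on both rhLH arrays and 17.7% lower. The medians of the 9 complement genes were 0.56 from PBS replicate 1 and −0.41 from PBS replicate 2. SIRPA, the phagocyte receptor for CD47, had signals of 514 and 416 with PBS and 784 and 497 with rhLH, and the rhLH arrays did not both exceed the controls.

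Of the adhesion and mucin type genes, CD58 was higher on both rhLH arrays. CD58, the ligand of the T cell receptor CD2, had signals of 1402 and 1339 in the controls against 1534 and 1682 after rhLH (log2 0.23, SE 0.31). Of its 3 other kept probe sets, those at 0.29 and 0.25 lay on the same side and that at −0.28 on the other. CD44, the hyaluronan receptor, had signals of 348 and 219 after PBS, beside 212 and 239.6 after rhLH, and CD24, a mucin-like protein, of 85.4 and 169 with PBS and 160.2 and 123 with rhLH. Their rhLH means lay 0.040 and −0.25 from PBS replicate 2. The pooled difference of CD24 was 0.19, whereas its other kept probe set stood at −1.72, and at 0.38 against PBS replicate 2. CD99 ran from 7283 on PBS replicate 1 to 19394 on PBS replicate 2, and CD164, a sialomucin, from 9168 to 11592, also both on PBS arrays. CD109, an inhibitor of TGF-beta signalling, was highest on PBS replicate 1 (906), and CD320, the receptor for transcobalamin-bound vitamin B12, lowest on it (539.9).

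Among 7 kept ligands of CD47 and matrix partners of CD44, HAS2, TNFAIP6 and the thrombospondin THBS2 were lower on both rhLH arrays, and VCAN was higher. That is 42.9% lower and 14.3% higher, beside 17.7% and 14.4% of all kept probe sets. HAS2, a hyaluronan synthase, had signals of 268 and 139 in the controls against 74.4 and 80.3 after rhLH, so it was kept through the PBS arrays alone, and TNFAIP6, which cross-links hyaluronan, of 2785 and 871 after PBS, beside 647 and 610.0 after rhLH. VCAN, the hyaluronan-binding proteoglycan versican, had signals of 4600.2 and 6013 with PBS and 7936 and 8168 with rhLH. Limma called 0 of the 7 kept genes of this list. The fixed list for the lipopolysaccharide receptor of CD14 held 7 kept genes, of which 0 were called. TLR4, the signalling chain, had signals of 257 and 287 in the controls against 388 and 224 after rhLH. Only IRAK1 separated the groups, being lower with rhLH, at 1595 and 395 with PBS and 250 and 341 with rhLH. For this list that is 14.3% lower and 0% higher, beside 17.7% and 14.4% of all kept probe sets. The pooled log2 difference of IRAK1, −1.40, was −2.39 relative to PBS replicate 1 and −0.42 relative to PBS replicate 2.

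CD36, a scavenger receptor for lipids and thrombospondin on capillaries and macrophages, was lower on both rhLH arrays, at 2685 and 1757 after PBS, beside 996 and 1715 after rhLH. The mean signal was 1355 ± 509 with rhLH and 2221 ± 656 with PBS (SD, n = 2 each), a 1.65-fold difference (log2 −0.73, SE 0.42). PBS replicate 2 and rhLH replicate 4 were nearly level, and the log2 difference was −0.34 without rhLH replicate 3 and −0.42 without PBS replicate 1. The groups overlapped under median centring. Endothelial markers outside the series did not move one way, with 2 of 9 higher and 1 lower on both rhLH arrays and a median of 0.15. These shares were 22.2% and 11.1%, beside 14.4% and 17.7% of all kept probe sets. CD248, the endosialin of pericytes and fibroblasts, had signals of 250.3 and 699.8 with PBS and 414 and 606 with rhLH, with the rhLH arrays between the controls.

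The remaining genes were CD164L2, CD177 and CD209L2. CD164L2, a relative of CD164, had signals of 2009 and 641 in the controls against 498 and 605 after rhLH. Its log2 difference of −1.03 (SE 0.58) was −1.84 with PBS replicate 1 as the control and −0.22 with PBS replicate 2, and its further kept probe set stood at 0.029. CD177, an antigen of neutrophils, ranged from 109 to 327, both on PBS arrays. CD209L2, a macaque relative of DC-SIGN, was alike on all arrays, at 1689.7 to 1993.

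Probe sets of 1 gene often disagreed. Of 24 genes with several kept probe sets, all probe sets lay on one side of 0 for 10 and on both sides for 14. For CD99 and CD79B the kept probe sets agreed in the sign of the pooled difference. They stood at 0.52 and 0.94 for CD99 and at 1.09 and 1.12 for CD79B. Against PBS replicate 2 those of CD99 were negative, between −0.18 and −0.11. Those of CD79B lay on both sides of 0, at −0.28 and 0.27. For CD276 the second probe set had signals of 7.86 and 352 after PBS, beside 434 and 513 after rhLH, where the brightest was level.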

How the data were processed

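The authors deposited probe set intensities, which are MAS5 signals per the submitters' processing notes. Detection calls, filters and the scaling target were not given in the sources used here. Per the labels' protocols, whole luteal RNA was isolated with Trizol, purified with a column kit and marked with biotin. No renormalization was applied because the 2% trimmed means agreed within 10%. Of 52865 probe sets, 99 controls were set aside; 24956 of the rest had 1 symbol and 361 had several. Signals entered limma 3.58.1 (R 4.3.3; lmFit, eBayes with trend, two-sided, Benjamini-Hochberg over all 31659 kept probe sets) as log2(signal + 16), and fold differences are on that scale. Probe sets with a mean above the 40th percentile were kept. Groups came from the sample titles.

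The members and the gene lists were chosen with earlier results of these data known. Values on every array are given for kept members whose groups do not overlap and differ by at least 0.5 (log2), and for a set of cell type markers; a further few were chosen after their values were seen. All other genes named come from the members or from lists of cell type markers and of partners of CD genes. The script was tested on simulated data. No sequences or coordinates were used, and mismatches of bonnet monkey transcripts to the rhesus probes were not examined. Alternatives covered quantile normalization, median centring, pseudocounts of 1 and 64, no filter, the 70th percentile, other variance settings, array weights, other probe sets and leaving out each array. The number of arrays limits the precision.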

Additional observations from a re-analysis of the deposited data

How the results depend on the processing

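The count of 0 limma calls held under all alternatives but 1: with PBS replicate 1 as the sole control, 8169 probe sets and 17 CD genes passed, so leaving out 1 array gave 0 to 8169 probe sets and 0 to 17 CD genes. The count higher on both rhLH arrays was 13 under median centring, and 8 to 27 with 1 array left out. The count lower on both was 2 with the filter at the 70th percentile, where 30 CD genes were tested, and 11 to 20 with 1 array left out; fewer arrays overlap less often by construction. The median difference was 0.24 at the 70th percentile, 0.34 under median centring, 0.23 under quantile normalization and −0.014 with another probe set per gene, and ran from 0.010 without PBS replicate 1 to 0.16 without rhLH replicate 4. The cause was not tested. Among the 27 kept genes picked by the naming rule, the pooled difference changed sign for 10 without PBS replicate 1, 1 without PBS replicate 2 (CD46), 4 without rhLH replicate 3, 3 without rhLH replicate 4 and 1 under median centring (CD55). Genes outside that rule are not in these counts, and some of them, such as CD81 and CD151, also changed sign without PBS replicate 1. No paired analysis was possible because the groups share no replicate numbers. Signals near the filter level of 90.7, most T and B cell genes among them, carry little information.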

Other observations

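Markers of granulocytes, mast cells and blood gave mixed signals. Of 6 granulocyte genes matched, 4 passed the filter and 1 lay above its level on all arrays, S100A8, at 213 and 267 with PBS and 209 and 185 with rhLH. Their summed signals were 687 and 755 for the controls and 728 and 712 after rhLH. The mast cell genes CPA3, HDC and MS4A2 did not pass the filter, and KIT, which other cells carry too, had signals of 2078 and 471 in the controls against 713 and 1527 after rhLH. Of the blood genes, HBA, the alpha chain of haemoglobin, had signals of 80.3 and 3259.8 after PBS, beside 1333 and 2271 after rhLH, with PBS replicate 1 alone under the filter level, whereas HBB, the beta chain, had 1025 and 799 with PBS and 787 and 925 with rhLH. The blood content of the tissue pieces was not tested beyond these values.

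Most macrophage genes outside the CD series were lower with rhLH than on PBS replicate 2 and higher than on PBS replicate 1. The complement gene C1QA had signals of 986 and 2841 in the controls against 2174 and 1147 after rhLH, and VSIG4, a complement receptor of resident macrophages, of 537 and 1544 after PBS, beside 1043 and 402 after rhLH. LYZ, which encodes lysozyme, had 6121 and 28435 with PBS and 13206 and 12488 with rhLH. Over 10 kept genes the median log2 difference was 0.87 from PBS replicate 1 and −0.40 from PBS replicate 2, and 8 of the 10 were negative against PBS replicate 2. Of the 15 kept CD genes of monocytes to dendritic cells, 6 were negative against PBS replicate 2 and 9 positive. The negative genes include CD1B, which was kept through the PBS arrays alone. The difference between the lists was not tested. CD14, CD68 and CD86 were positive on their brightest probe sets, whereas the other kept probe sets of CD68 and CD86 were negative, at −1.18 and −0.27.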
